A study of Rattus norvegicus with 18 samples.

Results

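A set of 85 genes lost most of its reads in the L5 dorsal root ganglion (DRG) of the rat 7 days after L5 spinal nerve transection (SNT). The genes were selected on their measured values, from 26172 Ensembl genes listed in the deposited tables. In the deepest run of the libraries, named 50 M, a member had a mean of at least 20 normalised read counts in the naive libraries. Its SNT mean was at most 0.15 of its naive mean, and its highest SNT library lay below its lowest naive library. Of 13877 genes with that naive level, 89 had such a ratio, and none of the 89 was lost to the requirement that the groups should not overlap, which 31.3% of the 17930 genes tested met in this direction. The 4 of these 89 that carried a gene symbol were set aside by the same rule, which left 85. The copy of the symbol list used here was shortened and does not reach the identifiers of 37 of the 85, so some of these may carry a symbol in the full list and the count of 85 may be too high under the rule. The fall is therefore what chose the genes, and their SNT and naive values are given as a description, without a test.

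The study compared ganglia whose spinal nerve had been cut with ganglia of naive animals, in male Wistar rats. Age was not stated. Each of the 3 SNT and 3 naive samples was a pool of L5 DRG from 4 rats, and each gave 1 poly(A) enriched RNA-seq library. Each library was sequenced in 3 runs of increasing read depth, named 17 M, 25 M and 50 M, so the runs are technical repeats of the same 6 libraries. The groups shared strain, sex and ganglion, and the naive animals had no surgery, so the nerve cut and the operation itself cannot be told apart. Animals differed between libraries, so the spread within a group holds variation between pools of animals as well as technical variation.

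A DRG holds the cell bodies of the sensory neurons that serve a body segment, each wrapped in satellite glial cells, together with Schwann cells along the axons and resident macrophages. Cutting the spinal nerve separates these neurons from their targets in skin, muscle and viscera. Cut sensory neurons are known to lower genes for ion channels, transmitter receptors and neuropeptides, and to raise genes linked to growth and repair, while immune cells enter the ganglion. In whole ganglia, fewer cells of a type and less RNA per cell cannot be told apart.

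At 50 M the naive libraries had 18588873 to 19031166 reads on exons and the SNT libraries had 15000789 to 17480115. The values are read counts that the authors had divided by the DESeq size factor of each library, and are called normalised read counts. They are not corrected for transcript length, so an order of genes by this value is an order of read support and not of mRNA abundance. Of 6 sensory neuron marker genes that could be matched to a symbol, Snap25, Nefh, Uchl1, Prph, Ret and Calca, each had at least 1786 normalised read counts in every library, as did Mbp of myelinating Schwann cells. The tissue label therefore had its defining markers.

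SNT replicate 1 stood apart from SNT replicates 2 and 3 in the selected genes. It was the highest SNT library in 83 of the 85 genes. The median gene kept 0.303 of its naive mean in SNT replicate 1, with a range from 0.0410 to 0.411. Over SNT replicates 2 and 3 the median gene kept 0.0291 of its naive mean, with a range from 0 to 0.145. The word silenced thus described SNT replicates 2 and 3, whereas SNT replicate 1 still held a sizeable part of the naive level. The main values below are given with and without it.

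**Figure D1:**
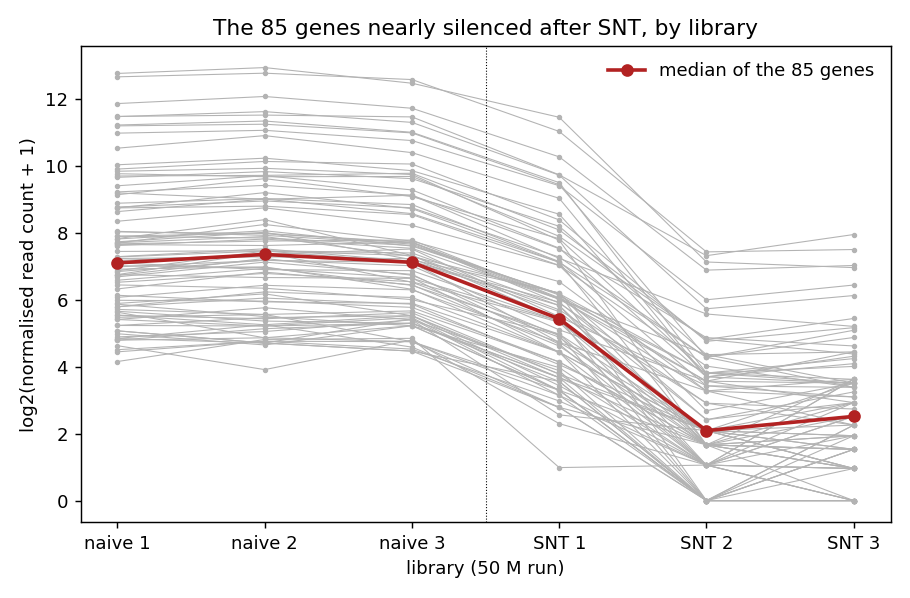
Normalised read counts of the 85 selected genes in the 6 libraries of the 50 M run, as log2(normalised read count + 1). Each grey line is a gene and the red line is the median over genes; the lines run level over the naive libraries, drop to an intermediate level in SNT 1 and reach their lowest levels in SNT 2 and SNT 3, where some genes have no read.

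By summed level the 85 genes behaved in the same way. Their normalised read counts summed to 47576 in naive replicate 1, 52867 in naive replicate 2 and 43354 in naive replicate 3. The sums were 15583 in SNT replicate 1, 1232 in SNT replicate 2 and 1446 in SNT replicate 3. The SNT sums were 32.5%, 2.57% and 3.02% of the naive mean, so the first SNT library held more than 10 times the reads of either of the other two. As a share of all reads on exons, the genes took 0.255%, 0.283% and 0.238% in the naive libraries and 0.0923%, 0.00756% and 0.00876% in the SNT libraries. The 25 M and 17 M runs of the same libraries gave 33.1% and 33.1% of the naive mean for SNT replicate 1, and between 2.71% and 3.19% for the other two libraries.

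**Figure D2:**
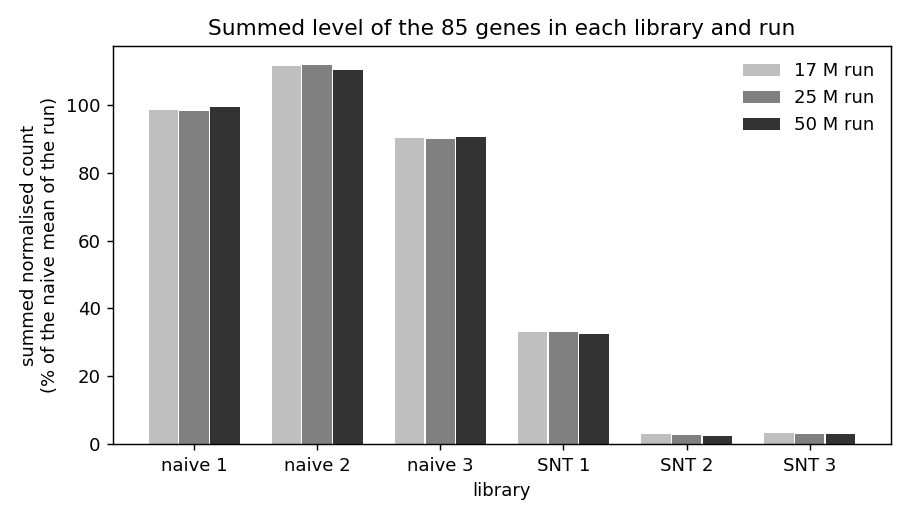
Summed normalised read counts of the 85 genes in each library, as a percentage of the naive mean of the same run, with a bar for each of the 17 M, 25 M and 50 M runs. The 3 runs of a library give nearly equal bars, SNT 1 lies near 33% and SNT 2 and SNT 3 near 3%.

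The genes covered a wide range of read support in naive ganglia. The naive mean ran from 21.6 to 6828 normalised read counts, with a median of 143. It was below 100 in 32 genes, from 100 to 1000 in 42 and above 1000 in 11. The ratio of SNT mean to naive mean had a median of 0.125, with quartiles of 0.106 and 0.138. It lay above 0.12 in 50 genes, between 0.10 and 0.12 in 22, between 0.05 and 0.10 in 12 and below 0.05 in 1 gene. Most of the set thus sat in the upper part of the range that the rule allowed. Without SNT replicate 1 the median ratio was 0.0291, with quartiles of 0.0179 and 0.0527. Over the 13877 genes with the same naive level the median ratio was 0.977.

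The gene with the highest naive level was ENSRNOG00000032884. It had 6954, 7850 and 5678 normalised read counts in naive replicates 1, 2 and 3, and 2804, 139 and 124 in SNT replicates 1, 2 and 3. The groups did not overlap, and the SNT mean was nearly all due to the first library. The naive mean was 6828 ± 1092 (SD, n = 3) and the SNT mean was 1022 ± 1543 (SD, n = 3), a ratio of 0.1497. Without SNT replicate 1 the ratio was 0.0192. The 3 runs gave ratios of 0.1497, 0.1472 and 0.1503 at 50 M, 25 M and 17 M, so the measurement of this gene hardly moved with read depth.

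The other 10 genes with a naive mean above 1000 also had SNT replicate 1 as their highest SNT library. The second by naive level had 6482, 6991 and 6127 normalised read counts in the naive libraries and 2092, 172 and 180 in the SNT libraries. The third had 3726, 4314 and 3380 in the naive libraries and 1235, 117 and 129 in the SNT libraries. Both kept 0.320 to 0.325 of their naive level in SNT replicate 1 and 0.0269 to 0.0324 in the other two. The fourth had 2856, 2934 and 2826 in the naive libraries and 851, 159 and 246 in the SNT libraries, and its 0.0705 of the naive mean in SNT replicates 2 and 3 was the highest among the 11. The sixth had 2389, 2595 and 2055 in the naive libraries and 724, 13.0 and 11.3 in the SNT libraries. At 0.00519 of the naive mean in SNT replicates 2 and 3, it was the lowest among the 11, although its level in SNT replicate 1, at 0.309, was close to that of the fourth gene, at 0.296.

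Across these 11 genes the fraction left in SNT replicate 1 ran from 0.296 to 0.411, whereas the fraction left in SNT replicates 2 and 3 ran from 0.00519 to 0.0705. The second varied by more than 10 times and the first by less. The limit on the SNT mean also limits SNT replicate 1, so the narrow range of the first follows in part from the selection. Over all 85 genes, SNT replicate 1 kept between 0.25 and 0.35 of the naive mean in 51 genes, more than 0.35 in 14 and less than 0.2 in 7. SNT replicates 2 and 3 kept at most 0.02 of the naive mean in 26 genes, at most 0.05 in 63 and at most 0.10 in 84. Split by naive level, the median fraction left in SNT replicate 1 was 0.282 in the 32 genes below 100 normalised read counts, 0.311 in the 42 genes from 100 to 1000 and 0.320 in the 11 genes above 1000. The median left in SNT replicates 2 and 3 was 0.0340, 0.0290 and 0.0213.

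In 2 genes another SNT library was the highest, and both had low read support. One had 28.7, 32.2 and 41.2 normalised read counts in the naive libraries and 4.91, 3.26 and 6.61 in the SNT libraries, so its 3 SNT libraries lay close together. The other was ENSRNOG00000028744, which had the lowest ratio of the set. It had 16.8, 27.1 and 27.8 normalised read counts in the naive libraries and 0.981, 1.09 and 0 in the SNT libraries. These were 73 naive reads against 2 SNT reads, a ratio of 0.0288 with an exact 95% interval from 0.00342 to 0.108 that covers counting error only. The gene was picked for its low ratio in this run, so the ratio tends to be too low. The interval does not allow for that choice. In the 17 M run the same gene had 4 reads in SNT replicate 1 and none in the other two, with 8, 5 and 8 reads in the naive libraries, a ratio of 0.164. With the 3 runs summed it had 44, 45 and 49 naive reads and 8, 1 and 0 SNT reads, a ratio of 0.0601 (exact 95% interval 0.0269 to 0.117). Summed in this way its first SNT library was again the highest of the SNT libraries, and so it was in all 85 genes.

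Reads were few in SNT replicates 2 and 3. At 50 M, 48 of the 85 genes had 3 reads or fewer in SNT replicate 2, 14 of them with none, and 35 had 3 reads or fewer in SNT replicate 3, 11 of them with none. In 35 genes both libraries had 3 reads or fewer, and in 7 genes both had none. In SNT replicate 1 a single gene, ENSRNOG00000028744, was as low as 3 reads or fewer. Differences between genes in how far they fell in SNT replicates 2 and 3 were thus not detectable for a large part of the set at this depth.

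Summing the 17 M, 25 M and 50 M runs sharpened the lowest values. No read at all was found in SNT replicates 2 and 3, over 6 runs, for 3 of the genes. The highest of these by naive level, at 240.5 normalised read counts in the 50 M run, had 1343 reads over the 9 naive runs and 81 over the 3 runs of SNT replicate 1. Its naive level was 13.2 reads in each 1000000 reads on exons, and 3 reads over the 6 runs correspond to 0.0491 on that scale. With 3 reads taken as the upper limit where none was found, this put it at least 268-fold lower in SNT replicates 2 and 3. This limit and those below cover counting error only, not variation between pools of animals. The 3 genes were picked for having no read, and the 50 M run that chose the set is in the sum. The limits do not allow for that choice and are a description. In SNT replicate 1 the first of these genes stood at 2.44, 5.39-fold lower than in naive libraries. The second had 1137 naive reads and 142 reads in SNT replicate 1. It was by the same limit at least 227-fold lower in SNT replicates 2 and 3 but 2.60-fold lower in SNT replicate 1. The third had 139 naive reads and 19 reads in SNT replicate 1, with a limit of at least 27.8-fold in the other two libraries.

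The pattern of a partial fall in SNT replicate 1 was also seen outside the set, among genes that fell less. In 736 genes without a symbol, the SNT mean lay above 0.15 and up to 0.40 of the naive mean with no overlap of the groups. SNT replicate 1 was the highest SNT library in 97.1% of these, compared with 97.6% of the selected genes and 41.7% of all 13877 genes with a naive mean of at least 20. The median fraction left was 0.470 in SNT replicate 1 and 0.192 in SNT replicates 2 and 3. On a scale where 0 is the mean of SNT replicates 2 and 3 and 1 is the naive mean, SNT replicate 1 stood at a median of 0.278 in the 85 genes (quartiles 0.222 and 0.311) and 0.349 in the 736 genes (quartiles 0.290 and 0.407). The limit on the SNT mean also limits SNT replicate 1, so these positions are given without a test. SNT replicate 1 was also the lowest SNT library in 86.4% of 516 genes without a symbol that rose at least 4 times with no overlap. Over the 13877 genes, SNT replicate 1 was the lowest in 41.7%. Its median position was 0.512 in the 516 genes. Over the 13877 genes the median position was 0.418, with a range from -352 to 1331. Many of these genes changed little, so their position divides by a difference near 0. The value of 0.418 is therefore not comparable with the others.

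**Figure D3:**
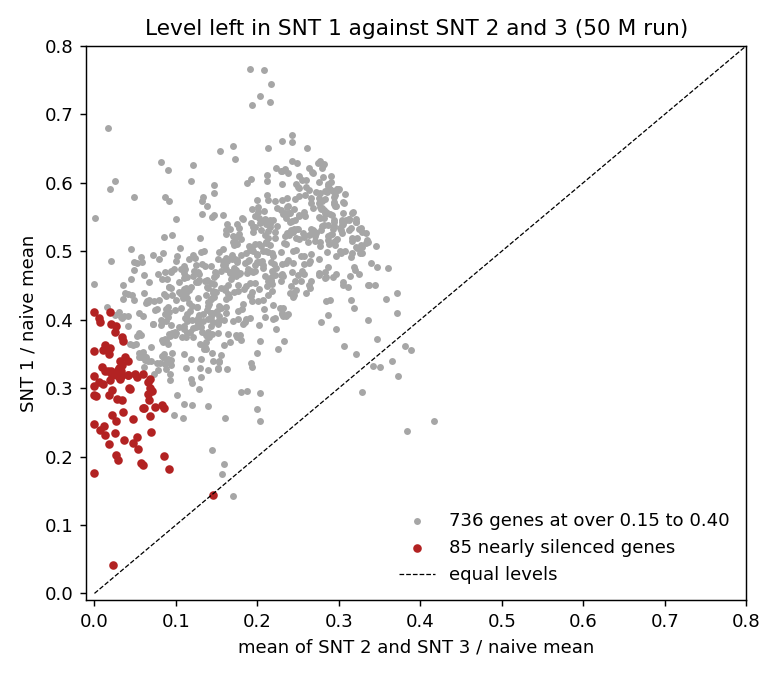
Fraction of the naive mean left in SNT 1 (vertical axis) against the fraction left on average in SNT 2 and SNT 3 (horizontal axis) in the 50 M run, for the 85 selected genes in red and 736 genes with a ratio above 0.15 and up to 0.40 in grey; the dashed line marks equal levels. Nearly all points lie above the line, and the red points lie at the left edge, most between 0.2 and 0.41 on the vertical axis.

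Marker genes of several cell types moved with the same libraries. Calca, the gene of the neuropeptide CGRP, had 16227, 17034 and 15969 normalised read counts in the naive libraries. In SNT replicates 1, 2 and 3 it had 9574, 1786 and 1886. Snap25, a synaptic membrane fusion protein, had 43779, 44128 and 41369 in naive libraries and 19597, 6076 and 7666 in SNT libraries. Uchl1, a general neuronal marker, fell less, from 31810, 35127 and 30492 to 25338, 18032 and 21377. Ptprc, which encodes the leukocyte antigen CD45, had 273, 154 and 430 in naive libraries and 666, 1860 and 1056 in SNT libraries, so it rose least in SNT replicate 1. Of the 6 matched of 20 sensory neuron markers, 5 were lower in SNT by limma and Prph was not called. The summed level of these 6 was 319850 to 365870 in naive libraries and 194973, 89576 and 109757 in SNT libraries. Among glial markers, Sox10 and Erbb3 were called higher, Ngfr was called lower, and Mbp and Pmp22 were not called. Mbp, a myelin protein gene, overlapped between the groups, at 41669 to 82226 in naive and 44676 to 57727 in SNT libraries. Ptprc was the only matched one of 15 macrophage markers and was called higher. No marker of T or NK cells, skeletal muscle, red blood cells or fat cells could be matched to a symbol. The part of cell composition in the levels of SNT replicate 1 was not tested.

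The naive libraries also had an order in the set. Naive replicate 2 was the highest naive library in 53 of the 85 genes and naive replicate 3 was the lowest in 50. Over all 13877 genes with a naive mean of at least 20, naive replicate 2 was highest in 42.6% and naive replicate 3 lowest in 41.9%. The order was also seen outside the set, and in the 736 genes that fell less naive replicate 2 was highest in 72.8% and naive replicate 3 lowest in 72.0%. Among the 11 genes with a naive mean above 1000, naive replicate 2 was highest in all 11 and naive replicate 3 lowest in 10, whereas the 32 genes below 100 were spread over the naive libraries. The same libraries were ordered in reverse for Mbp, with 63919, 41669 and 82226 normalised read counts in naive replicates 1, 2 and 3. Uchl1, as given above, followed the order of the set. The differences were small beside the fall after SNT, since the coefficient of variation over naive libraries had a median of 12.2% in the set. By naive level it was 15.3%, 11.9% and 11.1% in the selected genes below 100, from 100 to 1000 and above 1000, and 16.4%, 7.19% and 5.12% in all other genes of the same levels. The part of cell composition in this order was not tested.

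The other runs of the libraries show how far the ratios moved on repeat sequencing, although not how they would vary over new animals. Within a library, the reads of the 3 runs were compared with the run totals by a chi-square test, over gene and library pairs with a mean expected count of at least 5. Of 402 such pairs from the 85 genes, none differed at an FDR of 0.1, beside 0.0874% of 90347 pairs over all genes. The lowest adjusted p among the 402 pairs, in this chi-square test with Benjamini-Hochberg adjustment, was 0.270, and 17 of the pairs (4.23%) had an unadjusted p under 0.05, beside 6.05% of all pairs. The pairs were unevenly spread, with 85 for each naive library, 81 for SNT replicate 1, and 28 and 38 for SNT replicates 2 and 3. Most of the 85 genes were thus not tested in the latter libraries. At the rate over all pairs hardly any call was to be looked for among 402, so the absence of calls says little.

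In the 25 M run, 82 of the 85 genes had every SNT library below every naive library, as did 30.6% of 17226 genes tested. In the 17 M run it was again 82, beside 29% of 16820 genes. The fall was thus not limited to the run that chose the genes, but these are the same libraries and the shares are no independent evidence. All 85 ratios were under 0.5 in each run, with medians of 0.131 at 25 M and 0.135 at 17 M. Fewer genes stayed within the limit of 0.15, namely 55 at 25 M and 52 at 17 M. The naive minimum of 20 was met by 70 genes at 25 M and 60 at 17 M, where the same level gives fewer counts. The whole rule was met by 49 genes at 25 M, by 40 at 17 M and by 34 in all 3 runs.

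**Figure D4:**
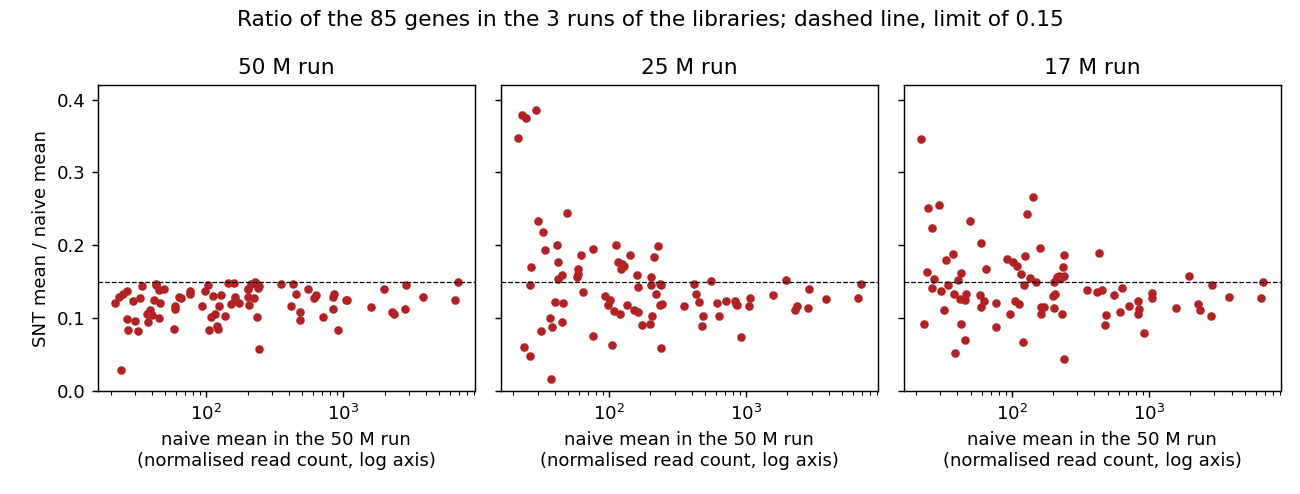
Ratio of SNT mean to naive mean of the 85 genes against their naive mean in the 50 M run (log axis), in the 50 M, 25 M and 17 M runs; each point is a gene and the dashed line is the limit of 0.15. In the 50 M run all points lie under the line by selection, and in the other runs the points spread across it, most widely at low naive levels, up to 0.385 at 25 M and 0.346 at 17 M.

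The spread over runs was largest where reads were few. Of the 53 genes with a naive mean of at least 100, 1 had a ratio above 0.20 at 25 M and 2 had one at 17 M. Of the 32 genes below 100 there were 8 at 25 M and 6 at 17 M. With the normalised read counts of the 3 runs summed, 70 of the 85 genes kept a ratio within 0.15, and the ratio ran from 0.0560 to 0.211 with a median of 0.127. Of the 15 genes that then passed over the limit, 8 had a naive mean below 100. Membership near the limit thus depended on which runs were read. Just inside the limit, the highest ratio was 0.14986, in a gene with means of 228 naive and 34.2 SNT normalised read counts, and the next was ENSRNOG00000032884 at 0.1497. Just outside it, the lowest ratio was 0.1501, in a gene with means of 98.4 and 14.8. Ratios above 0.14 were held by 19 members, and 24 genes without a symbol lay above 0.15 and up to 0.16. At the other limit, the lowest naive mean inside was 21.6 and the highest outside was 19.7, in a gene with a ratio of 0.0996.

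The choice of SNT libraries set the size of the set more than the choice of run did. Without SNT replicate 1, the rule found 343 genes, all 85 among them. In the 258 that were added, SNT replicate 1 kept a median of 0.416 of the naive mean (range 0.209 to 0.769), and it was the highest SNT library in each of the 258. In 256 of them it was still below every naive library. Without SNT replicate 2 the rule found 21 genes and without SNT replicate 3 it found 30. The median ratio of the 85 genes was 0.0291 without SNT replicate 1, 0.170 without SNT replicate 2 and 0.169 without SNT replicate 3. Leaving out a naive library gave between 81 and 104 genes.

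Set beside the whole table, limma called 5266 of 17930 genes lower in SNT at 50 M, or 29.4%, and 5231 higher. All 85 genes were among those called lower, which follows from how they were chosen. With each library scaled to the same total in place of the size factors, 3963 genes were called lower and 6602 higher, and over the whole table the median difference on the log2 scale moved up by 0.152. Under that scaling the median ratio of the 85 genes was 0.138, and 61 of them stayed within the limit.

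The 4 genes with a symbol that met the numerical rule had the same profile. Htr3b encodes a subunit of the serotonin-gated 5-HT3 receptor channel. Its normalised read counts were 2346, 2662 and 2201 in the naive group, compared with 644, 42.4 and 41.5 in the SNT group, a ratio of 0.101, or 0.0175 without SNT replicate 1. Kcnh7 encodes a voltage-gated potassium channel of the ERG family. It had 2087, 2293 and 1665 in naive libraries and 625, 74.9 and 105 in SNT libraries, a ratio of 0.133, or 0.0446 without SNT replicate 1. Lancl3, of the LanC-like family, had 159, 184 and 143 in naive libraries and 51.0, 8.69 and 6.61 in SNT libraries. RGD1304810 had 193, 182 and 150 in naive libraries and 52.0, 6.52 and 16.0 in SNT libraries. In each of the 4 genes SNT replicate 1 was the highest SNT library, at 0.268 to 0.315 of the naive mean.

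Roles of the 85 genes themselves are not given, because symbols came from a partial copy of a list of genes with many intronic reads and members have no symbol by the rule. That copy named 1994 genes, and its identifiers reach as far as those of 48 of the 85. Among the genes with a symbol, channel and receptor genes went in both directions. In whole ganglia the cell types that these reads came from were not measured. By limma, 6 of 8 potassium channel genes were lower and none was higher, and Kcnh7 was the only one of the 8 to meet the numerical rule. Of 4 sodium channel genes 3 were lower and 1 was higher, and of 3 GABA receptor genes all 3 were lower. Of 4 calcium channel genes 2 were lower and none was higher, and of 4 genes of the TRP, ASIC, piezo and HCN channels 3 were lower. Both matched purinergic receptor genes, P2rx4 and P2rx7, were higher. Of the G protein-coupled receptor genes Gpr124, Gpr126, Gpr56, Gprc5b and Ptger3, 2 were lower and 1 was higher. No Mas-related receptor gene was matched. Htr3b was the only serotonin receptor gene matched and was lower, and no glutamate, opioid or somatostatin receptor gene was matched. The share of all genes called lower was 29.4%, as given above, and these counts come from few genes that the list happened to hold.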

How the data were processed

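L5 DRG of male Wistar rats were compared 7 days after L5 SNT (3 libraries) and in naive animals (3 libraries), each a pool of 4 rats. Per the paper, reads were aligned with Bowtie to Rn5, reads that mapped to several places were discarded, and reads on exons were counted per Ensembl gene without regard to strand, leaving out exons shared by genes. Reads of close paralogs were therefore partly lost, and antisense transcripts were counted with their partner. The authors divided the counts of each run by its DESeq size factor and deposited these signal values, 1 table for each of 17 M, 25 M and 50 M. Every value was a whole multiple of what 1 read was worth in its column (100% of values), and reads were recovered from these steps. Runs of 1 library were treated as technical repeats. Each of the 18 deposited columns entered the work. Exon array data and intronic reads were not analysed here.

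The members were found by the stated limits. The members and the gene lists were chosen with earlier results of these data known. Log2(normalised count + 1) was compared by limma 3.58.1 in R 4.3.3 with a variance prior that follows expression, two-sided, over genes with reads in at least 3 of 6 libraries, with Benjamini-Hochberg adjustment over all genes of the run and an FDR of 0.1. Run on the recovered whole reads, edgeR 4.0.16 (TMM, quasi-likelihood test) called 5014 genes lower and 5352 higher at 50 M, and DESeq2 1.42.0 called 4891 and 4897. Runs were compared by a chi-square test. Both were tested on simulated data. Alternatives were other pseudocounts, filters, scaling, rule limits, runs, leaving out each library and a block for the replicate number. Symbols came from Additional file 5, since the deposited tables hold identifiers alone. At most 2 identifiers are printed, the one with the highest naive mean and the one with the lowest ratio. Other genes are given by their rank in naive level. The positions of SNT replicate 1 and the summed runs were added after the data were seen. No correction for transcript length was made, and no sequence is shown. Some marker genes are not reported here.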

Additional observations from a re-analysis of the deposited data

How the results depend on the processing

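The number of genes that met the rule was 85, and with a ratio limit of 0.10 or 0.20 it was 13 or 197. Leaving out 1 library gave between 21 and 343 genes, with the 3 values outside 1.5 times the count coming from leaving out SNT replicate 1 (343), 2 (21) or 3 (30). The rule applied to the 25 M and 17 M runs found 74 and 71 genes, of which 49 and 40 were members. The median ratio of the members stayed between 0.0291 and 0.170 when 1 library was left out. The level of SNT replicate 1 was 10.02 times the mean of SNT replicates 2 and 3 in the median member, compared with 9.99 in the 25 M runs, 9.98 in the 17 M runs and 9.73 with equal totals. Its position between SNT replicates 2 and 3 and the naive mean was 0.305 in the 17 M runs and 0.306 with equal totals, and 0.270 to 0.288 when 1 naive library was left out. The ratio of ENSRNOG00000028744 rested on 2 SNT reads and was 0.0603 at 25 M and 0.164 at 17 M. The replicate numbers were not found to pair the samples, since deviations of same-numbered SNT and naive libraries had correlations of 0.0356, -0.172 and 0.0824, and a replicate block gave 4748 genes lower and 4711 higher, 9459 in all, against 10497 without it. The rule chose the 85 genes on the 50 M values, so calls of them as lower in that run follow from the choice. At 50 M and an FDR of 0.1, edgeR called all 85 lower and DESeq2 called 80. With limma all 85 were called under the other pseudocounts, filters, variance prior, scaling, block and left-out libraries. Over all genes, 14984 to 19762 tested, these settings called from 3963 (equal totals) to 5695 (without SNT replicate 1) lower. In the 25 M runs limma called 84 of the 85 lower, beside 28.3% of 17226 genes tested. In the 17 M runs it called all 85, beside 26.4% of 16820. These are repeat runs of the same libraries, so the counts are no independent evidence. Leaving out 1 library gave 8416 to 11346 calls over all genes. With equal totals 62.5% of all calls were higher, against 49.8%. Read depth limits what can be said of single genes in SNT replicates 2 and 3, and the 3 runs say nothing of variation between animals.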
